A study of Mus musculus with 16 samples.

Results

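The comparison described here is between GFP+ and GFP- cells of odorant-exposed mice, sorted from the same pools of olfactory mucosa. Its members are the 4 GFP+ and 4 GFP- arrays labelled Odor, which are 8 of the 16 arrays in the series, taken by their labels and paired by replicate number. Expression was measured on Clariom S arrays, which read most annotated genes at the level of the whole gene. All mice were S100a5-tauGFP mice of both sexes, 7 to 12 weeks old, in which the S100a5 locus drives a green fluorescent protein that marks neurons with recent activity. Each mouse sat alone in a chamber under an air flow of 3.1 L/min for 40 h. From 26 h on, over the last 14 h, the odorant was delivered for 10 s every 20 min to these mice, and filtered air (the vehicle) to the mice of the remaining 8 arrays. Bourgeonal is the agent in the sample labels, whereas indole stands in the title of the series, and the compound is therefore called the odorant below. Each of the 4 odorant pools held 3 mice, dissociated and sorted by fluorescence into a GFP+ and a GFP- array. One pool is 1 replicate. SE of differences and p-values come from limma, which draws each probeset's spread between these pools toward a value common to all probesets. They are therefore not the spread of that probeset alone. The sources used here do not give the sorting gates.

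The olfactory mucosa renews its sensory neurons throughout life. Basal stem cells and dividing progenitors give rise to immature neurons, which mature, choose 1 odorant receptor and send an axon to the olfactory bulb. Sustentacular cells, Bowman glands, microvillar cells (ionocyte-like and tuft-like) and immune cells lie among and below the neurons. S100a5, a calcium-binding protein, is made by mature olfactory sensory neurons in proportion to their activity, and Omp, olfactory marker protein, by mature neurons in general.

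Of 22206 gene probesets, 883 were higher and 1817 lower in GFP+ cells at an adjusted p under 0.05 (limma, pools as a block, Benjamini-Hochberg), so 12.2% of probesets were called, 3.98% higher and 8.18% lower. The split depends on scaling: with quantile normalization it was 1424 higher and 1727 lower, and with array medians subtracted 9151 and 1602. The last scaling moves the median difference of all probesets from 0.10 to 0.42 on the log2 scale. Odorant receptors took 390 of the higher and 278 of the lower calls among their 1091 probesets. The other 17075 named genes, the subject here, gave 396 higher calls, 65 of them by at least 1 log2 unit, and 1359 lower calls, 1006 of them by at least 1 log2 unit. Between 46.7% and 50.9% of probesets per array exceeded background, taken as the 95th percentile of 23 antigenomic control probesets, and 642 called probesets were at background in both fractions. Where 1 fraction did not exceed background, a fold is printed as "at least" and is computed against the background level. List medians are of fitted differences, and where many members were at background the median is also given with each value under background set to that level ("at the bound"), which gives 0.13 for a probeset at background on all arrays. The number of arrays limits the precision. GFP- pool 1 stood apart: it had the highest mean level of the GFP- arrays in the gland, immediate early, neutrophil, sustentacular and ribosomal protein lists described below.

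The reporter gene itself checks the sort. S100a5 signal was 16.12, 15.56, 16.03 and 16.27 (log2) in GFP+ pools 1 to 4 and 15.22, 14.55, 14.77 and 14.87 in the GFP- arrays of the same pools. All GFP+ arrays lay above all GFP- arrays, a difference of 1.14 ± 0.15 log2 units (SE, n = 4 pools), or 2.21-fold (limma adjusted p = 0.0016). Omp was at 18.69 ± 0.05 (SD, n = 4) in GFP+ and 18.59 ± 0.07 in GFP- cells, a difference of 0.10 ± 0.13 (SE) with adjusted p = 0.69 and overlapping groups (0.41 and adjusted p = 0.039 with array medians subtracted). GFP- cells thus held mature neuron RNA at a signal close to that of GFP+ cells, and the comparison is not of neurons with non-neurons. In these bulk samples, fewer cells of a type and less RNA per cell cannot be told apart. The promoter that stands behind the reporter is shown with the 300 bases around its start (250 before, 50 after; RefSeq, GRCm38.p6, chr3:90608272-90608571, + strand), with its single CCAAT box, letters CCAAT on either strand, in capitals.
S100a5: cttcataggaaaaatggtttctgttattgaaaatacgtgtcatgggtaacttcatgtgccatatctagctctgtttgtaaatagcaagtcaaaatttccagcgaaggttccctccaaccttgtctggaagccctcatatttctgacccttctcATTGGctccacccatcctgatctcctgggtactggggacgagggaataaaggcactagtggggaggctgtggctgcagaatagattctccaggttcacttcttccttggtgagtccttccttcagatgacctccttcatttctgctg
CCAAT occurs in 37.41% of 32851 mouse promoters of this length and in 4 of 11 promoters of the activity-dependent list. A match is a description of the letters only.

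**Figure D1:**
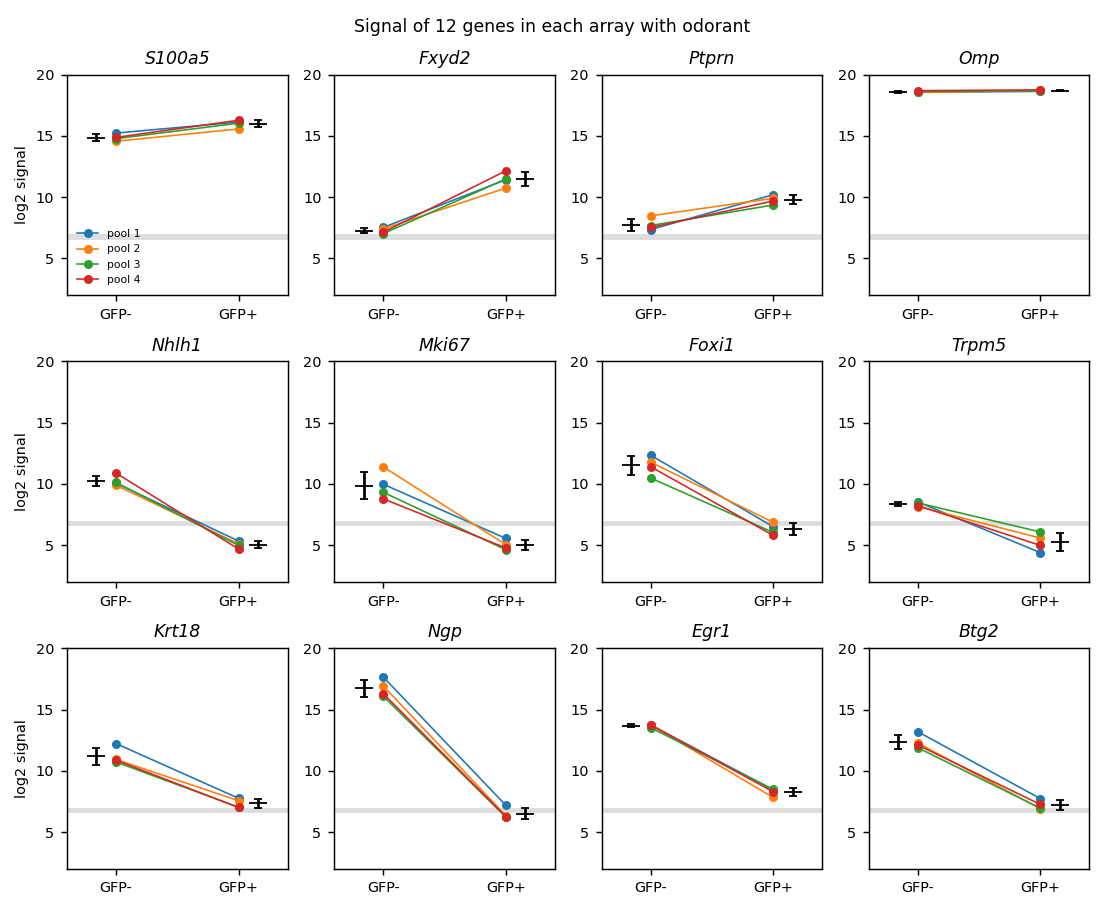
Log2 signal of 12 genes in the GFP- and GFP+ arrays with odorant; each line joins the 2 fractions of 1 pool of 3 mice, black marks give the mean ± SD of 4 arrays, and the grey band is the range of the background levels. S100a5, Fxyd2 and Ptprn rise from GFP- to GFP+ in all 4 pools, Omp stays near 18.6, and the other 8 genes fall in all 4 pools, with Nhlh1, Mki67 and Trpm5 under background in GFP+ cells.

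Most listed genes whose level is known to depend on activity in olfactory neurons were higher in GFP+ cells. Of the 10 probesets of that list, S100a5 included, 7 were higher and 0 lower in GFP+ cells, beside 3.98% higher over all probesets, with a median difference of 1.10 against 0.10 for all probesets. This list is built around the reporter's own kind of gene, so its direction is not independent evidence. Pcp4l1, a calmodulin-binding protein relative, was at 15.40, 15.45, 15.31 and 15.84 in GFP+ pools 1 to 4 and at 14.01, 13.69, 13.46 and 13.90 in GFP- pools, 3.33-fold higher without overlap (adjusted p = 0.00019). Lrrc3b rose 3.09-fold (1.63 ± 0.15 log2 units, SE; adjusted p = 0.00024) and Cidea, a lipid droplet protein, 2.69-fold (1.43 ± 0.14; adjusted p = 0.00034). Kirrel2, which sorts olfactory axons by adhesion, was at 14.53, 15.95, 14.67 and 15.51 in GFP+ pools and at 13.08, 14.92, 13.78 and 14.62 in GFP- pools. Its groups overlap, since pool 2 was high in both fractions, but each pool rose, by 1.06 ± 0.15 on average (2.09-fold, adjusted p = 0.0029); without the block by pool its adjusted p was 0.156. Epha5, an Eph receptor of axon guidance that also stands in the list of genes of low-activity neurons as one of its defining members, was 1.75-fold higher (adjusted p = 0.041); it lost its call without the block (0.132) and without each of replicates 1 (0.0681), 2 (0.0707), 3 (0.114) and 4 (0.0549).

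The largest rise outside the receptors was in Fxyd2, a regulatory subunit of the sodium pump. Its signal was 11.41, 10.74, 11.47 and 12.14 in GFP+ pools and 7.52, 7.40, 7.01 and 7.13 in GFP- pools. All GFP+ arrays lay more than 3 log2 units above all GFP- arrays, and the groups differ by 4.18 ± 0.26 (SE), 18.1-fold (adjusted p = 4.1e-05). Avp, vasopressin, was at 7.93, 8.68, 9.17 and 10.04 in GFP+ and 7.41, 7.21, 6.40 and 6.26 in GFP- pools, 4.39-fold higher (adjusted p = 0.023; 2 of 4 GFP- arrays above background), and was not past the threshold without replicate 2 (0.051) or replicate 3 (0.1). Ptprn, a membrane protein of dense-core vesicles, was at 10.19, 9.90, 9.35 and 9.67 in GFP+ and 7.34, 8.46, 7.67 and 7.52 in GFP- pools, 4.08-fold higher without overlap (adjusted p = 0.00094). Kcng1, a modifying potassium channel subunit, was at 9.59, 12.07, 10.35 and 10.96 in GFP+ and 7.56, 10.30, 8.74 and 9.56 in GFP- pools. Kcng1 varied more between pools than between fractions, so its 3.25-fold rise (adjusted p = 0.00026) rests on the pairing, and the adjusted p was 0.11 without the block. The remaining rises among the 15 largest were smaller: Caly, a dopamine receptor-interacting protein of endocytosis (3.09-fold), Kcnmb3, a subunit of the BK potassium channel (2.83-fold), Hs3st1, a heparan sulfate sulfotransferase (2.76-fold), the protocadherins Pcdh8 (2.72-fold) and Pcdh10 (2.55-fold), the transcription factor Rfx4 (2.57-fold), and Slc7a8, an amino acid transporter (2.54-fold). For these 7 genes all GFP+ arrays lay above all GFP- arrays, as they did for 7.86% of all probesets, and adjusted p ran from 0.00034 for Caly to 0.0043 for Pcdh10. Galnt15, a glycosyltransferase, was at least 1.68-fold higher and did not exceed background in any GFP- array.

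Few genes of odor transduction passed the test with the values as deposited. Of 33 probesets in that list, 1 was higher and 2 were lower, beside 3.98% and 8.18% of all probesets, with a median difference of 0.13 against 0.10 for all probesets. With array medians subtracted 18 of the 33 were higher, among them Gnal (0.45), Adcy3 (0.55), Cnga2 (0.49), Ano2 (0.80) and Rtp1 (0.44), so the call depends on the scaling. As deposited, none of these 5 passed the threshold. The G protein Gnal differed by 0.14 ± 0.14 (SE, adjusted p = 0.58), the cyclase Adcy3 by 0.23 ± 0.13 (0.32), the channel Cnga2 by 0.17 ± 0.14 (0.5), the chloride channel Ano2 by 0.48 ± 0.14 (0.074) and the receptor transporter Rtp1 by 0.13 ± 0.13 (0.59). The Gnal and Cnga2 groups overlap, and those of Adcy3, Ano2 and Rtp1 do not. Pde1c, a phosphodiesterase of olfactory cilia, was the 1 higher call, 1.61-fold (adjusted p = 0.013), lost without replicate 2 (0.0514) or 3 (0.0778). Camk2b, a calcium-dependent kinase, fell at least 1.51-fold (adjusted p = 0.0008).

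Some genes of the synapse and of excitability were higher in GFP+ cells. Beside 3.98% higher and 8.18% lower over all probesets, 5 of 25 presynaptic probesets (20.0%) were higher and 0 lower (median 0.32). Of 24 ion channel probesets 3 were higher (12.5%) and 1 lower (median 0.16), and of 33 axon guidance probesets 4 were higher (12.12%) and 2 lower (median 0.13). Kirrel2 and Epha5, counted above, are among those 4. Of the 3 higher channels Kcna1, a potassium channel, exceeded background on only 1 GFP+ array and lost its call without replicate 2 (0.0576). Syngr1, a synaptic vesicle protein, was at 13.67, 14.22, 13.91 and 13.96 in GFP+ and 12.58, 13.14, 12.57 and 12.71 in GFP- pools, 2.28-fold higher without overlap (adjusted p = 0.00084). Syt4, a synaptotagmin, was 2.24-fold higher (1.17 ± 0.13 log2 units, SE; adjusted p = 0.00082). Syn2, a synapsin, rose 1.81-fold (adjusted p = 0.0039), and Syn1 by the same fold with adjusted p = 0.02, lost without the block (0.0709) or without replicate 2 (0.0803). Sv2b, a vesicle glycoprotein, rose 1.71-fold (adjusted p = 0.012), lost without replicate 2 (0.0555) or 3 (0.061). The general synaptic genes Snap25, Syt1 and Slc17a6, the vesicular glutamate transporter, were 0.36, 0.32 and 0.27 log2 units apart and not past the threshold (adjusted p = 0.16, 0.23 and 0.26). Their GFP+ arrays nevertheless lay above all GFP- arrays, as for 7.86% of all probesets. With array medians subtracted the median of the presynaptic list was 0.63. Kcnn2, a calcium-activated potassium channel, rose 2.27-fold (adjusted p = 0.0013), while Kcnk1, a leak potassium channel, fell at least 3.17-fold (adjusted p = 0.00012).

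Among guidance molecules, Sema7a, a membrane-anchored semaphorin, was 1.59-fold higher (adjusted p = 0.017, lost without replicate 2 at 0.0849 or 4 at 0.0746), and the secreted Sema3a was 1.9-fold lower (adjusted p = 0.011). Plxna3, Nrp2 and Ncam2, receptors and an adhesion molecule of olfactory axons, differed by 0.59, 0.24 and 0.27 log2 units, and Robo2 by -0.39, none past the threshold. The dense-core vesicle list held 4 higher (26.67%) and 2 lower (13.33%) probesets of 15 (median 0.34, or 0.13 at the bound), beside 3.98% and 8.18% of all probesets. Of the 4, Ptprn is described above, and Pcsk1 and Ptprn2 were at background in both fractions; Ptprn2 lost its call without replicate 1 (0.0553) or 3 (0.0796). Chgb, a granin, was 2.17-fold higher (adjusted p = 0.0016), and Chga differed by 0.06 (adjusted p = 0.83). Pam, the enzyme that amidates peptides, was at 7.84, 7.49, 7.32 and 7.71 in GFP+ and 12.88, 11.70, 10.39 and 12.07 in GFP- pools, 18-fold lower without overlap (adjusted p = 6.4e-05). Cadps2, a factor for vesicle exocytosis, fell at least 2.91-fold (adjusted p = 0.00019). The cilia list had 2 of 38 higher (5.26%, near the 3.98% of all probesets) and 0 lower (median 0.20). Higher were Rsph1, a radial spoke protein (1.52-fold, adjusted p = 0.022), lost without replicates 2 (0.0965), 3 (0.0862) and 4 (0.0807), and Deup1, a centriole amplification gene (at least 1.39-fold, adjusted p = 0.0025).

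**Figure D2:**
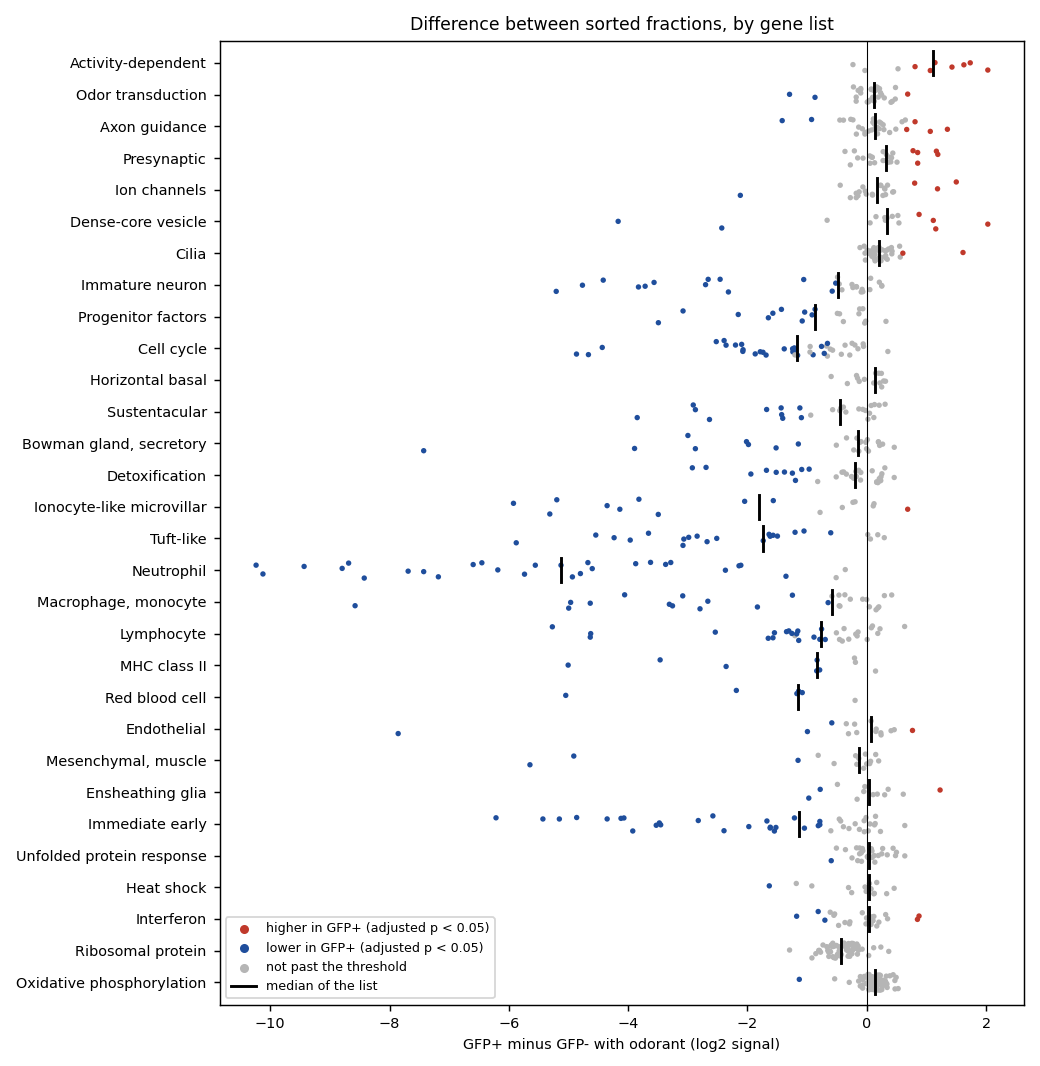
GFP+ minus GFP- difference with odorant (log2 signal) of each probeset in 30 gene lists, coloured by call, with the list median as a black bar. The activity-dependent list has its median at 1.10, the neutrophil list at -5.13, the ionocyte-like list at -1.81 and the tuft-like list at -1.74 (fitted values, background not bounded), and the odor transduction list at 0.13.

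Genes of newly made neurons were in part lower in GFP+ cells. Of 28 immature neuron probesets 13 were lower and 0 higher, beside 8.18% lower over all probesets, with a median of -0.48 (-0.33 at the bound). Calb2, calretinin, was at 11.61, 11.72, 11.66 and 11.65 in GFP+ and 16.23, 15.94, 16.01 and 16.13 in GFP- pools. The arrays of each fraction lie within 0.3 log2 units of each other, without overlap between fractions, as for 9.07% of all probesets in this direction. The fractions were 21.4-fold apart (-4.42 ± 0.14, SE; adjusted p = 2.7e-06). Nhlh1, a transcription factor of immature neurons, was at 5.34, 5.11, 4.98 and 4.69 in GFP+ and 10.05, 9.89, 10.12 and 10.88 in GFP- pools, at least 11.1-fold lower (adjusted p = 1.2e-05). Gap43, a growth cone protein, was at 7.85, 7.32, 8.32 and 8.04 in GFP+ and 11.10, 9.51, 10.85 and 10.88 in GFP- pools, 6.51-fold lower without overlap (adjusted p = 7.4e-05). Gng8, a G protein subunit of immature neurons, fell at least 15.7-fold, Cxcr4, a chemokine receptor of progenitors and young neurons, at least 7.31-fold, and Nhlh2 at least 4.63-fold. Dpysl3, a cytoskeletal regulator of growing axons, fell 13.1-fold and Stmn1, a microtubule destabilizer, 4.99-fold. Gnas, the G protein that precedes Gnal in development, fell 11.8-fold (adjusted p = 0.00014; above background on 2 of 4 GFP+ arrays). The other 15 probesets of the list were not called. Among them, Dcx differed by 0.25 (adjusted p = 0.31), Elavl4 by -0.46 (0.085) and Stmn2 by -0.49 (0.097). Tubb3, a tubulin of all neurons, differed by -0.08 (adjusted p = 0.75), and by 0.24 with array medians subtracted. Cell cycle and leukocyte markers were lower in the same GFP+ arrays (below), and their part in the values of this list was not tested.

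Part of the progenitor factors fell: 10 of 19 probesets were lower, beside 8.18% of all probesets, and 0 higher (median -0.87, but 0.12 at the bound). Of the 19, 9 were at background on all 8 arrays. Sox11 was at 7.68, 7.48, 8.15 and 8.05 in GFP+ and 10.88, 10.97, 10.63 and 11.21 in GFP- pools, 8.46-fold lower without overlap (adjusted p = 3.6e-05). Kit, the receptor of globose basal cells, was at least 2.46-fold lower (adjusted p = 0.00082) and Sox2, a stem cell and sustentacular factor, at least 1.64-fold (adjusted p = 0.0028). Ezh2, a Polycomb methyltransferase, fell 1.82-fold (adjusted p = 0.0058). Hdac2, a histone deacetylase that belongs to the immature neuron list above and not to this one, fell 1.49-fold (adjusted p = 0.033). The Hdac2 call was lost with array medians subtracted (0.142) or without replicate 1 (0.0815), 2 (0.0931), 3 (0.0865) or 4 (0.133). Neurog1, the proneural factor, was called lower (adjusted p = 0.0014) but was at background in both fractions.

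Many cell cycle genes fell: 24 of 40 probesets were lower, beside 8.18% of all probesets, and 0 higher, with a median of -1.18. Of the 40, 17 were at background on all arrays. At the bound the median was 0.01, so the size of the list's shift is not measured. Mki67, a marker of dividing cells, was at 5.55, 5.04, 4.63 and 4.77 in GFP+ and 9.97, 11.39, 9.31 and 8.78 in GFP- pools, at least 8.56-fold lower (adjusted p = 7.6e-05). The GFP+ arrays were all under background and GFP- pool 2 was the highest. Ccnb2, cyclin B2, fell at least 4.47-fold (adjusted p = 0.0026), Ube2c, a ubiquitin enzyme of mitosis, at least 3.01-fold, Kif11, a spindle motor, at least 2.83-fold, E2f8, an S phase repressor, at least 2.28-fold and Rrm2, of nucleotide synthesis, at least 2.23-fold. Pcna, also used in DNA repair, differed by -0.36 (adjusted p = 0.17), and Top2a by -0.95 (adjusted p = 0.065). The promoters of Mki67 (GRCm38.p6, chr7:135716330-135716629, - strand) and Ccnb2 (chr9:70421505-70421804, - strand) are shown because genes of mitosis are known to share CCAAT boxes and the cell cycle homology region, searched here as TTTGAA. Both motifs are in capitals, on either strand, and each promoter holds 3 matches of CCAAT and 2 of TTTGAA.
Mki67: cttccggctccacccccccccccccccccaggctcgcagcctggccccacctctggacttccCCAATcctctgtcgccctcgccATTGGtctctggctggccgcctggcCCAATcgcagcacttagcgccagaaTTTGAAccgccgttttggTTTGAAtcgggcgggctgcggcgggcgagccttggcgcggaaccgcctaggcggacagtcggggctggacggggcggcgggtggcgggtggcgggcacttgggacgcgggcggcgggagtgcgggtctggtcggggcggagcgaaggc
Ccnb2: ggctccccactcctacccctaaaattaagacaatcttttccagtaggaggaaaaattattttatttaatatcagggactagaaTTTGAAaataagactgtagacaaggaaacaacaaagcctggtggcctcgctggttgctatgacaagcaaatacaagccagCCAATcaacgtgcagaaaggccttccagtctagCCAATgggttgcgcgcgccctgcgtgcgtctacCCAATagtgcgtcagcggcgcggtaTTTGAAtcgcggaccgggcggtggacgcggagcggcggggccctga
Among 34 promoters of 32 of the 40 measured cell cycle genes, 79.41% held CCAAT and 52.94% TTTGAA, against 37.41% and 17.89% of all promoters.

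Microvillar cells, rare cells scattered in the epithelium, had most of their listed markers lower in GFP+ cells. In the ionocyte-like list 9 of 16 probesets were lower, beside 8.18% of all probesets, and 1 higher (median -1.81, or -1.30 at the bound). The higher one is Pde1c, which the odor transduction list above already counts. Foxi1, the transcription factor of ionocytes, was at 6.51, 6.87, 6.04 and 5.80 in GFP+ and 12.34, 11.78, 10.48 and 11.41 in GFP- pools, at least 26.6-fold lower (adjusted p = 1e-05). Hepacam2 fell at least 40.4-fold, Stap1, listed with these cells, at least 19.5-fold, Cftr, the chloride channel, at least 12.9-fold, Ascl3 at least 5.26-fold and Atp6v0d2, a proton pump subunit, at least 3.9-fold. Coch, cochlin, fell 11.3-fold (adjusted p = 6.5e-05).

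In the tuft-like list 19 of 23 probesets were lower, beside 8.18% of all probesets, and 0 higher (median -1.74, or -0.10 at the bound). At background on all arrays were 7 of the 23. Trpm5, a cation channel of taste-like signalling, was at 4.39, 5.58, 6.08 and 4.98 in GFP+ and 8.52, 8.15, 8.45 and 8.22 in GFP- pools, at least 2.97-fold lower (adjusted p = 0.00027). Pou2f3, the master factor of tuft cells, fell at least 2.73-fold, Rgs13 at least 6.79-fold and Cd24a, a surface protein, at least 21.6-fold. Alox5ap, of leukotriene synthesis, fell 18.8-fold and exceeded background on 2 of 4 GFP+ arrays. Alox5ap and Cd24a are also made by immune cells, whose markers moved the same way (below), and their part in these values was not tested.

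Supporting and gland genes were lower in part. Of 26 sustentacular probesets 10 were lower, beside 8.18% of all probesets, and 0 higher (median -0.45, or -0.19 at the bound). The count of lower ones was 6 without the block. Krt18, a keratin of sustentacular cells, was at 7.75, 7.55, 7.03 and 7.00 in GFP+ and 12.22, 10.93, 10.71 and 10.87 in GFP- pools, 14.4-fold lower without overlap (adjusted p = 1.4e-05). Sult1c1, a sulfotransferase, fell 7.51-fold, Ezr, ezrin of the apical membrane, 6.22-fold and Krt8 at least 3.38-fold. Cyp2g1, an olfactory cytochrome P450, was at 15.49, 15.63, 13.36 and 14.77 in GFP+ and 16.72, 15.84, 15.30 and 15.76 in GFP- pools, which overlap. It was 2.14-fold lower (adjusted p = 0.032), a call lost without the block (0.19) and without replicates 1 (0.114), 3 (0.103) and 4 (0.0652). Cyp2a5 was 2.69-fold lower (adjusted p = 0.01), lost without the block (0.0696) or without replicate 1 (0.055). Cbr2 and Ermn differed by -0.57 and -0.94 and were not past the threshold (adjusted p = 0.21 and 0.066).

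Of 24 gland and secretory probesets 8 were lower, beside 8.18% of all probesets, and 0 higher. The list median of -0.15 turned to 0.17 with array medians subtracted and to 0.04 at the bound, and 11 probesets were at background on all arrays. The 8 include Ltf, which the neutrophil list also holds and which is described there. Sox9, a factor of Bowman glands, was at 6.17 ± 0.18 (SD, n = 4) in GFP+ and 10.06 ± 0.37 in GFP- pools, at least 9.81-fold lower (adjusted p = 9.3e-06). Scgb1c1, a secretoglobin, fell 7.99-fold, Bpifb3 2.87-fold, Bpifa1 at least 2.84-fold and Aqp5, a water channel of glands, at least 1.49-fold. GFP- pool 1 was the highest array for these 4 secreted or gland genes, at 13.60 for Scgb1c1 against 10.88 to 11.71 in the other 3 GFP- pools. Only 5 probesets of the list were above background on all arrays. Scgb1c1 and Bpifb3 were the only called ones among these 5, and the others had adjusted p from 0.55 to 0.96. Of 34 detoxification probesets 10 were lower and 0 higher (median -0.20, or 0.11 both at the bound and with array medians subtracted). Aldh2, an aldehyde dehydrogenase, fell 7.59-fold (adjusted p = 0.00015) and Mgst1, a microsomal glutathione transferase, 6.47-fold (adjusted p = 0.0025). Gstm1, a cytosolic one, fell 2.13-fold (adjusted p = 0.013), lost without the block (0.173) or replicate 3 (0.0588).

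The largest falls were in genes of granulocytes. Of 29 neutrophil probesets 27 were lower, beside 8.18% of all probesets, and 0 higher, with a median of -5.13 (-4.10 at the bound). The mean level of the list was 4.99 to 5.22 in GFP+ and 9.70 to 11.61 in GFP- arrays. Ngp, neutrophilic granule protein, was at 7.18, 6.34, 6.22 and 6.26 in GFP+ and 17.65, 16.92, 16.09 and 16.30 in GFP- pools. It was at least 951-fold lower (adjusted p = 4.6e-07) and exceeded background on 1 of 4 GFP+ arrays. Lcn2, lipocalin 2, was at 7.60, 6.29, 6.40 and 5.53 in GFP+ and 17.24, 16.64, 15.96 and 16.48 in GFP- pools, at least 791-fold lower (adjusted p = 1.7e-06). GFP+ arrays were at or near background for both genes. Retnlg fell at least 264-fold, Chil3 at least 234-fold, the calprotectin subunits S100a8 and S100a9 at least 157-fold and at least 155-fold, and lactoferrin, Ltf, at least 41.9-fold. Genes of early granulocytes were also among them: Mpo, myeloperoxidase, fell at least 34.6-fold and Elane, neutrophil elastase, at least 17.1-fold. The proteases Mmp8 and Mmp9 fell at least 35.2-fold and at least 25-fold, haptoglobin, Hp, at least 27.9-fold and annexin A1, Anxa1, at least 37.3-fold. Il1b, an inflammatory cytokine, fell 30.6-fold (adjusted p = 9.5e-05; 2 of 4 GFP+ arrays above background). The promoters of Ngp (GRCm38.p6, chr9:110419558-110419857, + strand) and Lcn2 (chr2:32387690-32387989, - strand) are shown with matches of the C/EBP core TTGCNNAA on either strand in capitals, since C/EBP factors are known regulators of granule genes. Ngp holds 2 matches and Lcn2 holds 1.
Ngp: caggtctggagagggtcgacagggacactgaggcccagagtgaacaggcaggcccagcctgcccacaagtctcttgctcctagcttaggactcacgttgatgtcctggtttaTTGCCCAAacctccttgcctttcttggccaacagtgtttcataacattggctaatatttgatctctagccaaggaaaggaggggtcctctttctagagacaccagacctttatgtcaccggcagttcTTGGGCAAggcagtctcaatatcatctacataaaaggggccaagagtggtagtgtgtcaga
Lcn2: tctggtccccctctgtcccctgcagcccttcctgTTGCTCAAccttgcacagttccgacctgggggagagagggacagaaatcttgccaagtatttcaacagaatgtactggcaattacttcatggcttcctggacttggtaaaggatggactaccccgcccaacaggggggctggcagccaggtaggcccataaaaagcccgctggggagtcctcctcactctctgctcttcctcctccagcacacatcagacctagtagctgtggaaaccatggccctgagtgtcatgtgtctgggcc
The motif was in 34.62% of 26 neutrophil promoters and 10.8% of all promoters.

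Other blood lineages were lower too. Of 27 macrophage and monocyte probesets 13 were lower, beside 8.18% of all probesets, and 0 higher (median -0.58, but 0.02 at the bound). Lyz2, lysozyme, fell 31.2-fold (adjusted p = 0.00021) and Ly6c2 at least 58.7-fold. Ly6c2 and Ly6c1 (at least 28.9-fold lower) are near-identical neighbours, and their probes may share signal. Csf1r, the growth factor receptor of macrophages, fell 2.37-fold (adjusted p = 0.023), lost without replicate 1 (0.0757), 2 (0.0977) or 3 (0.0796). C1qa and Adgre1, markers of tissue macrophages, differed by 0.18 and -0.28, not past the threshold. Of 32 lymphocyte probesets 17 were lower and 0 higher (median -0.77, but 0.13 at the bound), and 25 were at background on all arrays. Ptprc, the pan-leukocyte phosphatase CD45, fell at least 15.6-fold and Jchain, of antibody-secreting cells, at least 4.41-fold. Cd3e and Cd79a, which define T and B cells, were at background in both fractions. Of 9 MHC class II probesets 6 were lower; H2-Aa fell at least 20.2-fold (adjusted p = 8.6e-06), and Ciita was at background in both. Of 6 red cell probesets 5 were lower (3 without replicate 2), with Car1 at least 4.5-fold, Slc4a1, the band 3 anion exchanger, 4.55-fold and Alas2, of haem synthesis, at least 1.67-fold lower; Alas2 lost its call without replicate 2 (0.0524).

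Most listed markers of further cell types were at background. The horizontal basal cell list, of the quiescent stem cells, had 0 of 14 probesets called, 12 of them at background on all arrays and 2 above it on all arrays, with Krt5, Krt14 and Trp63 among the 12. Of 15 endothelial probesets 14 were at background on all arrays, with Pecam1 and Cdh5 among them. Beside 8.18% lower and 3.98% higher over all probesets, 3 of the 15 were lower and 1 higher. Ly6c1, above, was the only one of these 4 above background in either fraction. Of 15 mesenchymal and muscle probesets 12 were at background, Col1a1 among them, and 3 were lower. Vim, vimentin, was at 7.62, 6.67, 6.68 and 7.49 in GFP+ and 13.10, 12.66, 12.53 and 12.75 in GFP- pools, 50.1-fold lower (adjusted p = 2.2e-06; 3 of 4 GFP+ arrays above background). Rgs5, a signalling regulator known from pericytes, fell 30.1-fold (adjusted p = 6.5e-06). Vim is also made by leukocytes, and the part of leukocytes in its value was not tested. Of 12 glial probesets 1 was higher and 2 were lower; Fabp7, of ensheathing glia, differed by 0.61 (adjusted p = 0.13), and Sox10 was at background in both fractions. Fn1, fibronectin, and Adgrg6, an adhesion receptor, were among the 15 largest falls, at least 14.9-fold and at least 24.1-fold.

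**Figure D3:**
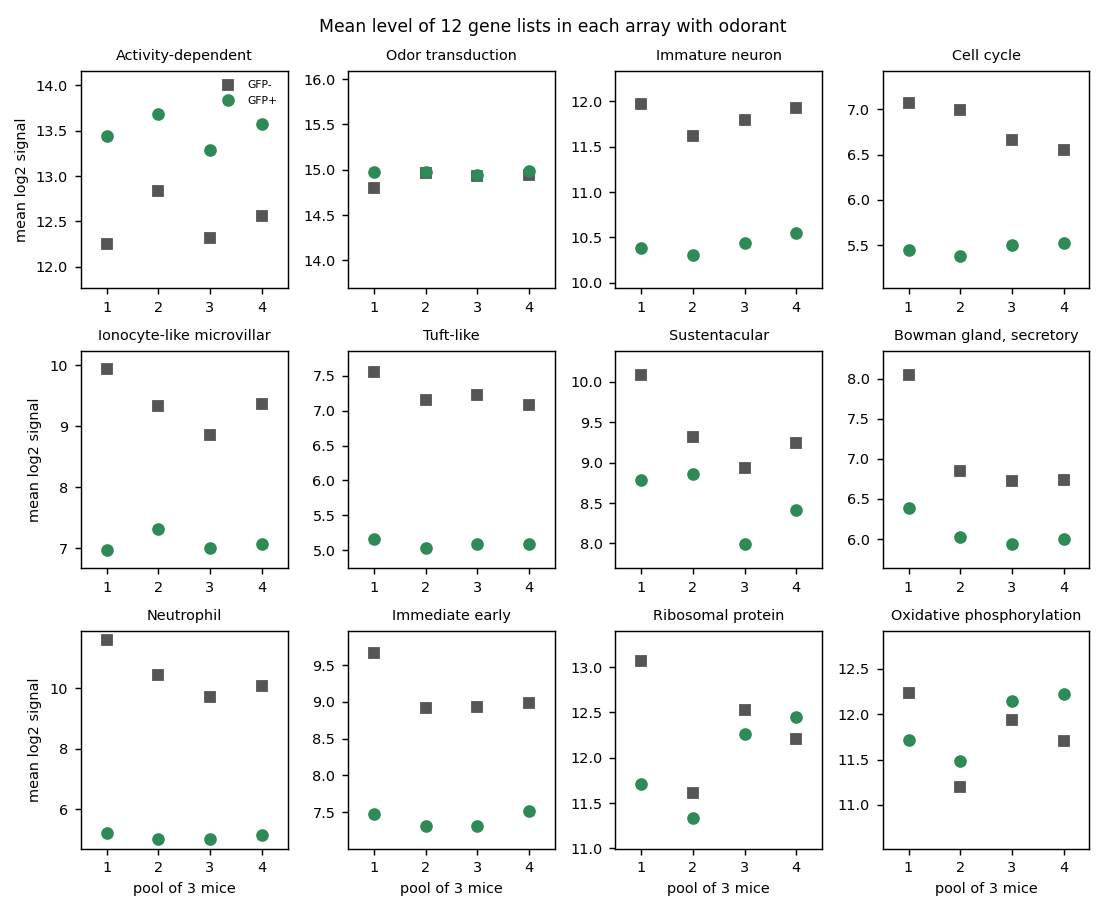
Mean log2 signal of 12 gene lists in the GFP- (squares) and GFP+ (circles) array of each odorant pool of 3 mice. GFP- pool 1 is the highest square for the sustentacular, gland, neutrophil, immediate early and ribosomal protein lists; odor transduction lies near 15 in all arrays, and the fractions change order between pools for the ribosomal protein and oxidative phosphorylation lists.

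Immediate early genes, whose transcription follows stimulation within minutes, were in part lower in GFP+ cells. Of 42 probesets 25 were lower, beside 8.18% of all probesets, and 0 higher, with a median of -1.13 (-0.69 at the bound). Egr1 was at 8.45, 7.83, 8.48 and 8.29 in GFP+ and 13.74, 13.74, 13.53 and 13.76 in GFP- pools, 43.1-fold lower (-5.43 ± 0.17, SE; adjusted p = 2.7e-06). Egr2 was at 6.44, 7.15, 6.39 and 7.27 in GFP+ and 13.44, 12.36, 13.01 and 13.30 in GFP- pools, 74.3-fold lower (adjusted p = 8.6e-06; 2 of 4 GFP+ arrays above background). Fos was at 11.69, 10.80, 10.88 and 11.32 in GFP+ and 16.11, 15.26, 14.83 and 14.78 in GFP- pools, 16.8-fold lower (adjusted p = 1.2e-05). For these genes the fractions lie more than 3 log2 units apart in every pool. Btg2, an antiproliferative gene, fell 35.6-fold, Fosb 29.1-fold, Zfp36, which destabilizes mRNA, 17.4-fold, Junb 11.1-fold and Nr4a1, an orphan nuclear receptor, 7.09-fold. Atf3 fell 3.07-fold and Jun 1.73-fold. Arc and Npas4, which neurons of the brain induce with activity, were at background in both fractions. The mean level of the list was 7.31 to 7.52 in GFP+ and 8.91 to 9.66 in GFP- arrays. Neutrophil, macrophage, gland and sustentacular markers were lower in the same GFP+ arrays, as given above; their part in the immediate early values was not tested. The promoters of Fos (GRCm38.p6, chr12:85473640-85473939, + strand) and Btg2 (chr1:134079106-134079405, - strand) are shown because both genes fell in all 4 pools and hold the CRE half-site TGACG, in capitals on either strand. Each has 2 matches, which in Btg2 overlap in a palindrome.
Fos: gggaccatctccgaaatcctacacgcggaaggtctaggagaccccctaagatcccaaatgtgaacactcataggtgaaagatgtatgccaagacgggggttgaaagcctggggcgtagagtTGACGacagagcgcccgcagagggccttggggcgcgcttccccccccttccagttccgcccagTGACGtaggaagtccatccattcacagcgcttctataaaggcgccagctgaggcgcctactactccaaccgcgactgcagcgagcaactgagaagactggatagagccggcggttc
Btg2: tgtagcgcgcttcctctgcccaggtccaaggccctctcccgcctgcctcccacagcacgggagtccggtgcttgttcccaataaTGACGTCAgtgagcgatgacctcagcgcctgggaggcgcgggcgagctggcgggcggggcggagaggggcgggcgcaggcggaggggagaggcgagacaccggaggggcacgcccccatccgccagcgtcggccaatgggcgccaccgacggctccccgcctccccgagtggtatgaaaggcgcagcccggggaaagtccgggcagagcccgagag
TGACG was in 30 of 49 promoters (61.22%) of 33 of the 40 immediate early genes measured, against 20.81% of all promoters. The CArG box of serum response factor was in 12.24% of them and 1.63% of all.

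Stress and housekeeping lists gave few calls, with the largest shares in the interferon list. The unfolded protein response list had 0 higher and 1 lower of 29 (median 0.04), with Hspa5, an endoplasmic reticulum chaperone, at 16.74 ± 0.10 (SD, n = 4) and 16.71 ± 0.04, and Atf5, which olfactory neurons use in receptor choice feedback, at 16.12 ± 0.05 and 16.06 ± 0.11. The heat shock list had 1 lower of 15: Hspa1b, inducible Hsp70, fell at least 2.63-fold (adjusted p = 0.034), lost without the block (0.0507), with quantile normalization (0.061) or without replicate 3 (0.0881). Of 27 interferon probesets 2 were higher (7.41%) and 3 lower (11.11%), beside 3.98% and 8.18% of all probesets, and 17 were at background on all arrays; Ifi27 rose 1.83-fold (adjusted p = 0.0068) and Ifit1 1.8-fold (adjusted p = 0.011). The lower ones were the transcription factor Irf7 and Xaf1, both at background in both fractions, and Bst2, tetherin, at least 1.07-fold (adjusted p = 0.039). Xaf1 and Bst2 lost their calls in several alternatives, without replicates 2 (0.0936 and 0.103) and 3 (0.0837 and 0.163) among them. Ribosomal protein genes had 0 of 60 called with a median of -0.43, and the pool medians were -1.41, -0.26, -0.23 and 0.20. Oxidative phosphorylation genes had 0 higher and 1 lower of 82, with pool medians of -0.50, 0.30, 0.19 and 0.49. In both lists pool 1 had the lowest median.

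The receptor choice and apoptosis lists had shares of lower calls near the 8.18% of all probesets. In the receptor choice list 2 of 21 (9.52%) were lower: Smchd1, a chromatin silencer, by 2.98-fold (adjusted p = 0.0042) and Lbr, the lamin B receptor that olfactory neurons lose as they mature, by 1.93-fold (adjusted p = 0.015), the latter lost without replicate 2 (0.0533). In the apoptosis list 2 of 19 (10.53%) were lower: Casp8, an initiator caspase, by 11.1-fold (adjusted p = 0.00017) and Mcl1, a survival factor, by 2.01-fold (adjusted p = 0.0023). Of 16 probesets of atypical olfactory neurons, such as necklace neurons with cGMP signalling, 8 were lower and 0 higher (median -0.64, but 0.13 at the bound; 5 lower without replicate 3). Gnai2, a G protein known from vomeronasal neurons and also from immune cells, fell 17.8-fold (adjusted p = 5.7e-05), and Pde2a, a phosphodiesterase of necklace neurons, by 6.83-fold (adjusted p = 0.00036, 2 of 4 GFP+ arrays above background). The other lower calls were all Ms4a genes, of which Ms4a1, Ms4a4b, Ms4a6b and Ms4a8a were at background in both fractions. Leukocyte markers were lower in the same GFP+ arrays (above), and their part in the values of this list was not tested. Of the list's other defining members, Gucy2d and Cnga3 were at background in both fractions and not called (adjusted p = 0.42 and 0.77). Gucy1b2 differed by -0.40 and was not called either (adjusted p = 0.18). Of 8 probesets of low-activity neurons, 1 was higher (12.5%) and 1 lower (12.5%); these are Epha5 and Calb2, which other lists above already count. Over all 34 lists, 27 of 828 probesets were higher and 227 lower, beside 3.98% higher and 8.18% lower over all probesets. These lists were chosen with earlier results of these data known.

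The same comparison in vehicle pools, from separate mice and arrays, addresses whether these differences depend on the odorant. There 1682 probesets (7.57%) were higher and 2237 (10.1%) lower. Of the 2700 odorant calls 2189 were called in the same direction with vehicle, which is 81.07% of the odorant calls and 55.86% of the 3919 vehicle calls; 1 was called in the opposite direction, and 2648 had the same sign. Fxyd2 differed by 4.18 with odorant and 3.58 with vehicle, S100a5 by 1.14 and 0.93, Calb2 by -4.42 and -4.39, Dpysl3 by -3.72 and -4.02, Coch by -3.50 and -3.59, and Egr1 by -5.43 and -4.89. The list medians with odorant and vehicle were 1.10 and 1.16 for activity-dependent genes, -0.48 and -0.39 for immature neuron genes, and -1.13 and -1.24 for immediate early genes. Ribosomal protein genes had 43 of 60 lower with vehicle (median -0.79) and 0 with odorant (-0.43). The test of the difference itself, odorant against vehicle pools in the GFP+ minus GFP- value, called 0 probesets (0.0%) in limma, with 1460 at an unadjusted p under 0.05 and a smallest adjusted p of 0.43. The unadjusted 95% interval of that difference had a median half-width of 0.54 log2 units, and a call after adjustment needs a difference larger than that interval. The named probesets with the smallest p there included Cmtm7, which differed by -0.70 with odorant and -2.53 with vehicle, and Palld, at background in both fractions with odorant; Cmtm7 had an interaction adjusted p of 0.47. The Cmtm7 call with odorant (adjusted p = 0.044) was lost in most alternatives, with adjusted p from 0.0502 without replicate 4 to 0.173 without replicate 3.

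**Figure D4:**
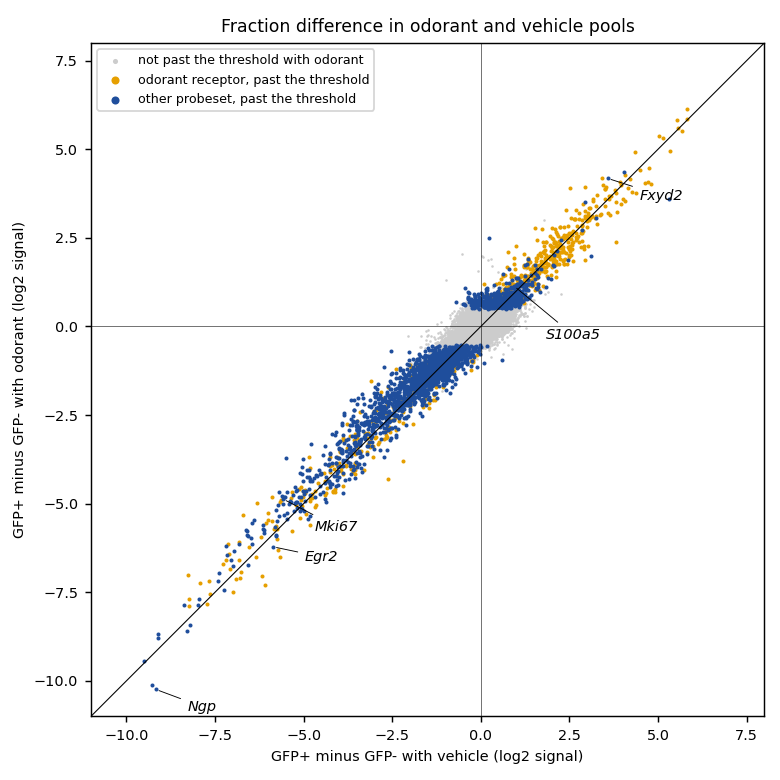
GFP+ minus GFP- difference (log2 signal) of all 22206 gene probesets in vehicle pools (x) and odorant pools (y), with the line of equal values; coloured points are past the threshold with odorant. Of the 2700 coloured points 2648 have the same sign on both axes, with Fxyd2 at 3.58 and 4.18; differences of genes at background in 1 fraction, such as Ngp and Mki67, are drawn at their fitted values, which are not measured sizes.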

How the data were processed

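The deposited values are log2 probeset signals, made by the authors with Affymetrix Expression Console, per the submitters' processing notes. The sources used here do not give its version, its normalization or the build of the array annotation. Values were used as deposited. Of 28846 probesets 6640 controls were left out, and 22206 were tested; 19572 carried 1 gene symbol, 0 several and 2634 none. Groups came from the labels. GFP+ minus GFP- was fitted with limma 3.58.1 (lmFit, eBayes, R 4.3.3), two-sided, with the pool as a block and Benjamini-Hochberg adjustment over all probesets, threshold 0.05.

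Fractions with the same replicate number came from the same pool: 24 mice in pools of 3 make 8 pools for 16 arrays. The deviations of same-numbered odorant arrays from their group means correlated at 0.014, 0.356, 0.285 and 0.137. For GFP+ and GFP- odorant arrays of different numbers the values ran from -0.25 to 0.152. Those of pools 1 and 4 lay within that range, so these correlations do not show the pairing for them. The interaction compared the pool differences of odorant and vehicle. A fold against a fraction at background used the background level in place of any lower value.

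The members, the 34 lists and the tests were chosen with earlier results of these data known. Genes were named from the 15 largest rises and 15 largest falls (receptors and predicted genes passed over), S100a5, Omp and Kirrel2, the list anchors and up to 6 further called members per list, and the 5 smallest interaction p-values; the text gives part of them. Alternatives were no replicate block, quantile normalization, array medians subtracted, a filter on dim probesets, all 16 arrays in the fit, a trended robust prior and each replicate left out. The fits were tested on simulated data with 200 shifted probesets. The main fit made 168 calls, 1 of them false, and recovered 52% to 98% of the shifts, by their size. The interaction fit made 164 calls, 13 of them false, and recovered 22% to 100%. Promoters are from RefSeq (GRCm38.p6). Plots used matplotlib 3.10.9 in Python 3.11.15.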

Additional observations from a re-analysis of the deposited data

Results flagged for a closer look

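In 29 of 336 groups of 4 arrays, 1 array lay so far from the other 3 that its gap exceeded the 95% critical share (Dixon) of the group's range; chance alone does so in about 1 of 20 groups. Of the flags on list means, GFP- pool 1 was the highest array for gland and secretory genes (8.05 against 6.73 to 6.85) and immediate early genes (9.66 against 8.91 to 8.99) and the lowest for cilia genes (11.29 against 11.49 to 11.54). GFP+ pool 3 was the lowest for mesenchymal and muscle genes (4.78 against 5.06 to 5.08).

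Among single genes, GFP- pool 1 was the highest array for Il1b (13.18), S100a8 (15.82), Lyz2 (15.35), Anxa1 (13.7), Cyp2a5 (16.58), Krt18 (12.22), Aqp5 (8.26) and Ccnb2 (10.05), and the lowest for Plxna3 (10.51). GFP- pool 2 was the lowest for Gap43 (9.51) and GFP- pool 4 for Bst2 (6.16). GFP- pool 3 was the lowest for Cftr (9.12), Ezh2 (9.26) and Egr1 (13.53) and the highest for Kcnn2 (12.27).

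In the GFP+ arrays, pool 1 was the lowest for Hspa5 (16.59) and the highest for Ngp (7.18). Pool 2 was the highest for Syn1 (11.88), Ifit1 (11.92) and Mcl1 (11.93). Pool 3 was the lowest for Aldh2 (9.66), Bpifb3 (9.38) and Kcna1 (6.0). Pool 4 was the highest for Lyz2 (10.66) and the lowest for Gnal (18.15).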

How the results depend on the processing

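Of the 210 called probesets that the naming rule selects, 164 kept their call in every alternative that tested them (157 passed the dim filter), 46 lost it in at least 1 and 0 changed sign; of the 254 called list members these numbers were 192, 62 and 0. Most losses came from leaving out a pool, which takes away arrays: 14 to 30 of the 210 per pool. Without the replicate block (the pairing by pool) 16 of the 210 were lost, and the whole comparison gave 793 higher and 1742 lower probesets. The count of higher probesets moved to 1424 with quantile normalization, to 9151 with array medians subtracted, and to between 567 and 693 without 1 replicate (567 without replicate 3); that of lower probesets moved to 1115 without dim probesets, where 11123 were tested. Higher list members went from 27 to 203 with array medians subtracted. Of 38 probesets named in the text that were not called, 20 passed the threshold with that scaling. The cause of the moves with scaling was not tested.

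The sign turned only for named genes that were not called. With array medians subtracted the differences were 0.24 for Tubb3, 0.0083 for Pecam1, 0.12 for Arc, 0.11 for Ciita, 0.19 for Trp63, 0.039 for Adgre1 and 0.27 for Npas4. With quantile normalization they were 0.047 for Ciita and 0.032 for Adgre1. Leaving out 1 replicate gave -0.023 (without replicate 4) to 0.42 for C1qa, -0.22 to 0.070 (without replicate 3) for Trp63 and -0.16 to 0.22 (without replicate 4) for Npas4. Signal near background limits all values of these genes except Tubb3.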

Other observations

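Beyond the odorant receptors, 341 probesets of other chemosensory receptors (vomeronasal, formyl peptide and trace amine receptors) gave 17 higher (4.99%) and 6 lower calls (1.76%), with a median difference of 0.18. Of 2634 probesets with no gene symbol 62 were higher and 142 lower (median 0.11), and of 1062 predicted genes 18 were higher and 32 lower (median 0.16).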
